A study of Mus musculus with 4 samples.

Results

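The apolipoproteins described here are 10 genes chosen by symbol (Apoa1, Apoa2, Apoa4, Apoa5, Apob, Apoc1, Apoc2, Apoc3, Apoe and Apom), of which 9 had a probe among the 16593 genes measured. Apob was not analysed here. Whole-liver RNA was read on Illumina expression arrays in 2 samples in which Cre under the albumin promoter deletes a floxed TAK1 gene in hepatocytes (Alb-Cre/ TAK1 flox, called TAK1 KO) and 2 samples with the floxed gene and no Cre (TAK1 flox, called WT). All 4 samples came from untreated male C57BL/6 mice, 4 weeks old, kept on chow. TAK1 is a kinase that carries cytokine and Toll-like receptor signals to NF-kB and MAP kinases, and the 2 genotypes are compared for what its loss from hepatocytes does to the liver transcriptome. Since the WT genotype is labelled without Cre, Cre and the deletion cannot be told apart, and other liver cell types, where Alb-Cre is not active, contribute RNA too. Nothing in the labels states that replicates were different animals, so the spread behind every p-value may be technical.

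Apolipoproteins are the protein coat of the particles that carry lipid in blood, and the liver makes most of them. Apob is the scaffold of very low density lipoprotein, Apoa1 and Apoa2 are the main proteins of high density lipoprotein, and the small C apolipoproteins, Apoa5 and Apoe move between particles and set how fast their triglyceride is hydrolysed and their remnants taken up. Many of these genes lie in gene clusters and are among the most strongly transcribed genes of hepatocytes.

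Each array held 25697 probes with a median of 81.5 to 81.9 units, and the share of probes above 100 units was 40.6% to 40.9%. The 2 arrays in each group limit the precision of every value. Map3k7, which encodes TAK1, read 125.3 and 117.9 units in TAK1 KO and 155.0 and 138.4 units in WT (limma, adjusted p = 0.116), and since the part of the transcript that its probe reads is not known here, it does not check the labels.

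Of the 9 measured apolipoprotein genes, 3 were higher in TAK1 KO liver (Apoa4, Apoc2 and Apoa2) and 0 were lower at an adjusted p under 0.05 in limma's moderated test. At an unadjusted p under 0.05, 1 more was higher (Apoa1) and 1 was lower (Apoc3). At an adjusted p under 0.05, 18.2% of all genes passed, 10.5% upward and 7.71% downward (1743 and 1279 of 16593). With each array scaled on a list of hepatocyte genes, mostly for secreted proteins, that split was 4119 higher and 550 lower. Of all genes 8319 lay below 100 units on every array, as 0 of the 9 members did. In a fit of only the 7797 genes at or above 100 units on 2 arrays, 1651 were higher and 1246 lower. The share of all genes at an unadjusted p under 0.05 is not given here. The median log2 difference, TAK1 KO minus WT, was 0.13 over the 9 members and 0.00 over all genes. The groups did not overlap in 8 of the 9, as they did not in 53.7% of all genes. The fold changes below are on a log2 scale after background correction. In these bulk samples fewer cells of a type and less RNA per cell cannot be told apart.

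**Figure D1:**
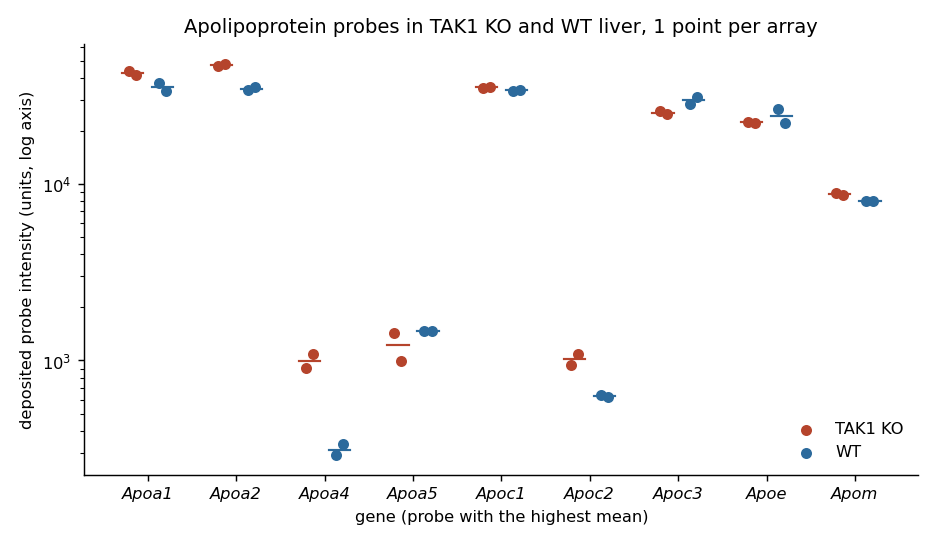
Deposited intensity (units, log axis) of the brightest probe of each measured apolipoprotein gene, with 1 point per array and a bar at the group mean, TAK1 KO (red) left of WT (blue). Apoa4 and Apoc2 are clearly apart between the groups, while the probes above 20000 units differ by at most 1.37-fold.

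Apoa4, a lipid-binding protein of triglyceride-rich particles that is made in gut and liver, had the largest difference of the 9. It read 902.8 and 1094.3 units in TAK1 KO liver, against 290.3 and 335.1 units in WT liver. Every TAK1 KO array was above every WT array. The log2 difference was 1.66 ± 0.12 (SE, n = 2 per group), or 3.16-fold (limma, adjusted p = 3.91e-05), which placed Apoa4 at the 99.5th percentile of the log2 differences of all genes. Apoc2, the cofactor that lipoprotein lipase needs to hydrolyse triglyceride, read 944.8 and 1088.6 units in TAK1 KO, against 634.2 and 620.4 units in WT. The groups were again apart, by 0.69 ± 0.10 on the log2 scale (SE, n = 2 per group), or 1.61-fold (limma, adjusted p = 0.00154). Its dimmer probe gave 230.7 and 236.8 units in TAK1 KO and 160.4 and 147.3 units in WT, a 1.51-fold rise (limma over all 23978 probes, adjusted p = 0.0025). Apoa4 and Apoc2 passed under each of the 14 alternative settings tried.

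Apoa2, a structural protein of high density lipoprotein, read 46913.3 and 48293.9 units in TAK1 KO and 34167.2 and 35502.8 units in WT. The groups did not overlap, and the log2 difference was 0.45 ± 0.09 (SE, n = 2 per group), or 1.37-fold (limma, adjusted p = 0.00779). The Apoa2 call was lost with quantile normalization (log2 0.20, adjusted p = 0.219), with a background offset of 16 units (adjusted p = 0.0643) and when WT replicate 1 was left out (adjusted p = 0.0696), and its adjusted p ran from 4.74e-05 to 0.219 over the 14 alternatives.

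The promoters of the 3 genes that passed, and of Apoa1 as a cluster neighbour of Apoa4 that did not, are shown so that the sequences of the genes that rose can be compared. They come from RefSeq (GRCm38.p6) and run 5′ to 3′ from 250 bases before to 50 bases after a transcription start. Of the 10 members, 8 had an entry, and Apoa2 had 2 starts. Capitals mark exact matches, on either strand, to 6 motifs whose letters are given here with the share of all 32851 promoter windows of the table that hold them. The TATA box was searched as TATAAA, which 13.6% of the windows held. For the CCAAT box the share was 37.4%. The core of an HNF4 site was searched as CAAAGTC, with a share of 4.44%. A nuclear receptor hexamer was searched as AGGTCA, with a share of 16.3%. Part of an HNF1 site was searched as GTTAAT, with a share of 7.1%. The E-box was searched as CACGTG, with a share of 7.15%. No match overlapped another in the 5 windows.
Apoa4, chr9:46240594-46240893, + strand: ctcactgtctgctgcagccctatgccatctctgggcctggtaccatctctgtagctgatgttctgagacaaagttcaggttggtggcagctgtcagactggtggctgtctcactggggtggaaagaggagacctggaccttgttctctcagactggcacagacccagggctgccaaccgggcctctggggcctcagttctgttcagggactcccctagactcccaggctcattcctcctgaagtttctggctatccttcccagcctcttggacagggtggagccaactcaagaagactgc
Apoc2, chr7:19677892-19678191, - strand: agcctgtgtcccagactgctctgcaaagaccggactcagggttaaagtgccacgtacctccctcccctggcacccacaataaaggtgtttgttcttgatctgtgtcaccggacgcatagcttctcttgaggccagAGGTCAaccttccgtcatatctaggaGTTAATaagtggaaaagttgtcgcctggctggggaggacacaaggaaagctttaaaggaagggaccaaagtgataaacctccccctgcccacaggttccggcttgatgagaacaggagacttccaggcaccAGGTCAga
Apoa2 (upstream start), chr1:171221314-171221613, + strand: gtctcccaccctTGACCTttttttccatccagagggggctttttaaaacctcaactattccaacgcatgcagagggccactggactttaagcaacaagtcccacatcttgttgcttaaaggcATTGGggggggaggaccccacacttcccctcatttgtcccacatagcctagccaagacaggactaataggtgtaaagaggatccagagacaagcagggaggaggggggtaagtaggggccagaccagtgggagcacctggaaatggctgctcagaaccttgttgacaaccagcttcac
Apoa2 (downstream start), chr1:171224804-171225103, + strand: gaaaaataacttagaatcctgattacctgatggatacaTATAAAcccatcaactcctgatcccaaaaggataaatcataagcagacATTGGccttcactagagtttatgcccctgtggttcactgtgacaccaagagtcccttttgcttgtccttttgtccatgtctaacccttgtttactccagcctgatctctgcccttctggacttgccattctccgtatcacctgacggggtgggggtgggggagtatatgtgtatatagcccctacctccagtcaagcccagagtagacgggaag
Apoa1, chr9:46228380-46228679, + strand: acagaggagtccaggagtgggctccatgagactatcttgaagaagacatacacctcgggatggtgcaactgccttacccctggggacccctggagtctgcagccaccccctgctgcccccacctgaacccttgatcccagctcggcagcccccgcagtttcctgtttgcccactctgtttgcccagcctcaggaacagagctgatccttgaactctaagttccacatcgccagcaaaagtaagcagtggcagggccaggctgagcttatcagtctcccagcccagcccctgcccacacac

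In the windows of Apoa4 and Apoa1 none of the 6 motifs was found. Apoc2 had the nuclear receptor hexamer at positions -115 and 43, counted from the start, and the HNF1 letters at -89. The upstream Apoa2 window held the CCAAT box at -128 and the hexamer at -238, both on the reverse strand. The downstream Apoa2 window held the TATA box at -212, and the CCAAT box at -164 on the reverse strand. No motif was therefore found in all 3 genes that rose, and a match is a string of letters and not a tested site.

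Among the high density lipoprotein proteins, Apoa1, which activates the cholesterol-esterifying enzyme LCAT, read 43996.7 and 41442.8 units in TAK1 KO and 37231.7 and 33669.6 units in WT. Both TAK1 KO arrays were above both WT arrays, yet Apoa1 did not pass (log2 0.27 ± 0.10, SE, n = 2 per group; limma, adjusted p = 0.0996). Apom, which carries sphingosine 1-phosphate on these particles, read 8910.7 and 8626.9 units in TAK1 KO and 8009.0 and 8067.3 units in WT. Its log2 difference of 0.13 had a 95% interval of -0.08 to 0.33 (adjusted p = 0.457).

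Apoc3, which slows triglyceride hydrolysis and remnant uptake, read 25919.0 and 24913.1 units in TAK1 KO, against 28458.7 and 31409.2 units in WT. The groups were apart in the opposite sense to Apoc2, but Apoc3 did not pass (log2 -0.23 ± 0.10, SE, n = 2 per group; limma, adjusted p = 0.148). Apoa5, which promotes hydrolysis by lipoprotein lipase, read 1437.8 and 997.7 units in TAK1 KO and 1473.8 and 1479.0 units in WT. The 2 TAK1 KO arrays were far apart, both below the WT arrays, and Apoa5 did not pass (log2 -0.30 ± 0.15, SE, n = 2 per group; limma, adjusted p = 0.255). Its log2 difference was -0.56 without TAK1 KO replicate 1 and -0.04 without TAK1 KO replicate 2 (limma, adjusted p = 0.000842 and 0.922), so its size depended on which array was kept. In those fits the lone TAK1 KO array is assumed to vary like the 2 WT arrays, which lay close together, so these p-values leave out the spread between the TAK1 KO arrays.

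Apoc1, an inhibitor of several steps of lipoprotein remodelling and uptake, was read by 2 probes that went opposite ways. The brighter gave 35128.3 and 35631.0 units in TAK1 KO and 33886.3 and 34363.3 units in WT, a log2 difference of 0.05 with a 95% interval of -0.15 to 0.26. The dimmer gave 25415.2 and 25748.4 units in TAK1 KO and 28449.0 and 27672.3 units in WT, a log2 difference of -0.13 ± 0.09 (SE). Each probe separated the groups and neither passed (limma over all probes, adjusted p = 0.816 and 0.435). Apoe, the ligand through which receptors clear remnants, read 22530.1 and 22328.0 units in TAK1 KO and 26676.3 and 22125.6 units in WT. It was the 1 member whose groups overlapped, and its log2 difference of -0.12 had a 95% interval of -0.36 to 0.13 (adjusted p = 0.607).

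**Figure D2:**
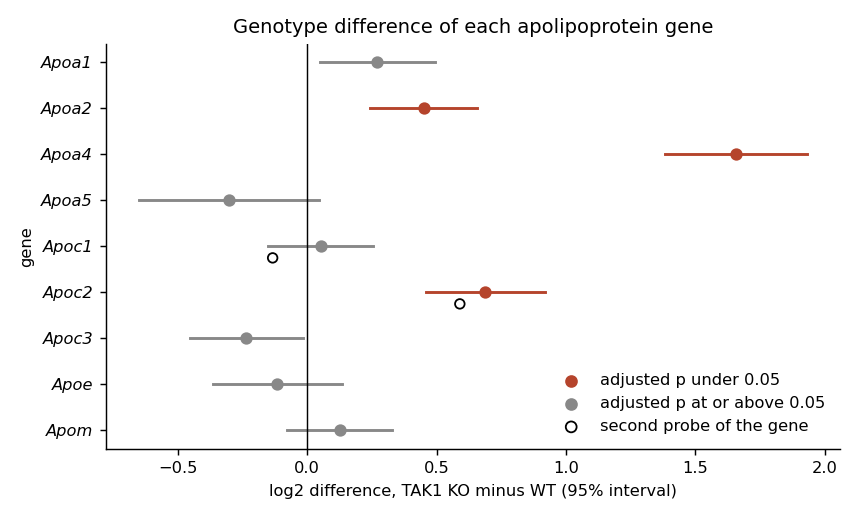
Log2 difference, TAK1 KO minus WT, of each measured apolipoprotein gene with its 95% interval from limma; red points passed an adjusted p of 0.05 and open circles show a second probe of the same gene. Apoa4 (1.66), Apoc2 (0.69) and Apoa2 (0.45) passed, and the probes of Apoc1 lie on both sides of 0.

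In the Apoa1, Apoc3, Apoa4, Apoa5 cluster of chromosome 9, where the RefSeq table lists the 4 genes next to each other, the log2 differences were 0.27, -0.23, 1.66 and -0.30 in that order. The 95% interval of Apoa4 (1.38 to 1.93) did not overlap those of Apoa1 (0.05 to 0.49), Apoc3 (-0.45 to -0.02) or Apoa5 (-0.65 to 0.05). In the chromosome 7 cluster, Apoc2, Apoc4, Apoc1 and Apoe had log2 differences of 0.69, 0.12, 0.05 and -0.12. Apoc4, which is not among the 10 genes, read 21110.5 and 20847.2 units in TAK1 KO and 18738.4 and 19999.5 units in WT (limma, adjusted p = 0.514). Here the 95% interval of Apoc2 (0.46 to 0.92) did not overlap those of Apoc1 or Apoe. Differences between neighbouring genes were not themselves tested. Apoa4 and Apoc2 averaged 655.6 and 822.0 units, whereas Apoa1, Apoc3, Apoc1 and Apoe averaged above 20000 units, where a probe may misstate a change.

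Of the 9 genes 5 averaged above 20000 units, some of them close to the brightest probes of the arrays, where a probe near saturation understates a change. The brightest probe of each array reached 49912.5 and 51311.8 units in TAK1 KO, against 42322.3 and 39663.0 units in WT. Apoa2 stood at 94.0% and 94.1% of that maximum in TAK1 KO and at 80.7% and 89.5% in WT. Apoa1 stood at 88.1% and 80.8% in TAK1 KO and at 88.0% and 84.9% in WT. Apoc1 stood at 70.4% and 69.4% in TAK1 KO and at 80.1% and 86.6% in WT. Farther from the top, Apoc3 stood at 51.9% and 48.6% in TAK1 KO and at 67.2% and 79.2% in WT. For Apoe the shares were 45.1% and 43.5% in TAK1 KO and 63.0% and 55.8% in WT. These shares describe closeness to the top of the scale and do not say which gene changed. Where a listed gene averaging above 20000 units had further probes, each dimmer probe gave a lower log2 difference. Brightest first, the values were 0.28 and 0.25 for Ahsg, 0.39 and 0.21 for Serpina1b and -0.33 and -1.16 for Azgp1. For Kng1 they were 0.15, -0.19 and -1.02, where the dimmest probe read only 378.9 to 882.5 units. The gaps were smaller for Hpx (0.19 and 0.15), Fga (-0.12 and -0.24), Serpina1a (-0.02 and -0.13) and Apoc1 (0.05 and -0.13) than for Azgp1 and Kng1. Apoa2 and Apoa1 had only 1 probe each, so whether their differences are overstated was not tested.

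The top of the scale itself differed between the genotypes. Above 40000 units lay 8 and 10 probes on the TAK1 KO arrays, against 1 and 0 on the WT arrays. Besides Apoa1, Apoa2 and Apoc1, 11 genes averaged above 30000 units, and 10 of these had a positive log2 difference, with a median of 0.21 and a largest value of 0.39. Apoa2 at 0.45 lay above all 11, Apoa1 at 0.27 lay within their range, and Apoc1 at 0.05 lay below their median. Of the 125 genes averaging above 10000 units 46.4% passed the test in either direction, whereas 1 of the 5 apolipoproteins in that range did. With quantile normalization, which gives the arrays the same top values, the log2 differences were 0.03 for Apoa1, 0.20 for Apoa2 and -0.08 for Apoc1, none of which passed (adjusted p = 0.892, 0.219 and 0.699). The part of this shift in the Apoa2 call was not tested.

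**Figure D3:**
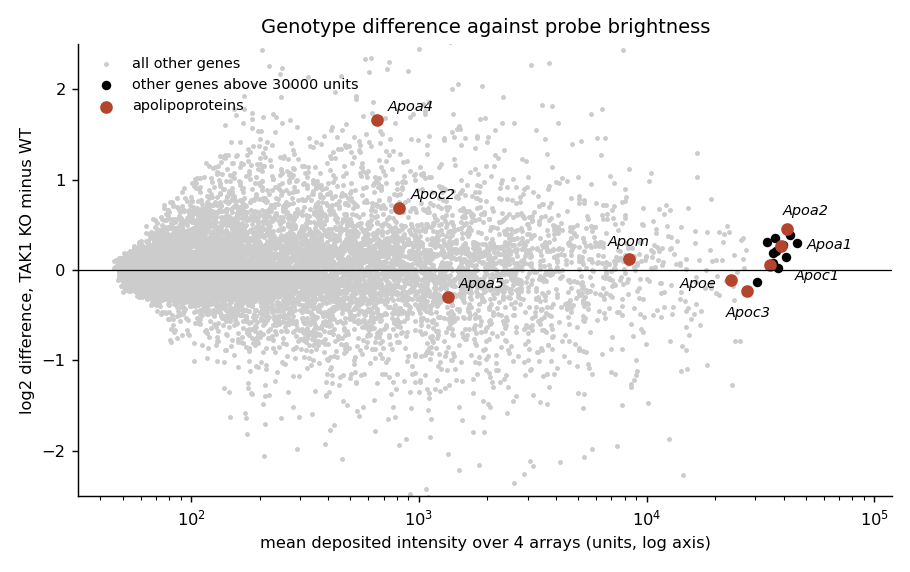
Log2 difference, TAK1 KO minus WT, of every gene against its mean deposited intensity (units, log axis), with apolipoproteins in red and the 11 other genes above 30000 units in black; 40 genes lie beyond the vertical axis. Apoa2 lies at the upper edge of the brightest genes, whereas Apoa4 and Apoc2 lie in the middle of the brightness range.

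Beside the 9 apolipoproteins (median log2 difference 0.13), 33 measured hepatocyte genes had a median log2 difference of -0.12, with 11 lower in TAK1 KO and 1 higher. They encode secreted proteins of other kinds, except Cps1, which encodes a mitochondrial enzyme. The 33 include Fgb, which read 55.0 to 62.4 units, below 100 units on every array, and Alb, which read only 190.5 to 214.4 units. Whether the groups of genes differ was not tested. Serpina6, the corticosteroid-binding globulin, fell 2.99-fold, Fetub 2.15-fold and Hrg 1.61-fold (limma, adjusted p = 6.60e-05, 0.000252 and 0.00286), and the second probe of Hrg also fell (adjusted p = 3.24e-05). A1bg was 2.94-fold lower (adjusted p = 0.0221), and read 186.4 and 322.4 units in TAK1 KO and 1182.2 and 450.3 units in WT. Its log2 difference was -1.56 with all arrays, -0.86 without WT replicate 1 (adjusted p = 0.132) and -2.25 without WT replicate 2 (adjusted p = 0.00658). The A1bg call was also lost with a robust prior (0.372), over a range of adjusted p from 2.07e-15 to 0.372. Serpina1b, a protease inhibitor with near-identical copies, was 1.31-fold higher (adjusted p = 0.0167), and lost the call in 4 of the 14 alternatives (adjusted p from 0.000229 to 0.358). Its second probe did not pass (log2 0.21, adjusted p = 0.221). Scaling each array on the median level of these 33 genes adds 0.26 to every log2 difference, which puts the median of all genes at 0.25. That shift is larger in size than the median log2 difference of the 33 genes themselves (-0.12), so it does not measure how they typically changed. In that fit limma gave every gene the same variance, and 5 apolipoproteins passed upward: Apoa1 (log2 0.53, adjusted p = 0.00388) and Apom (0.38, adjusted p = 0.047) joined Apoa2, Apoa4 and Apoc2. Over the 14 alternatives the adjusted p ran from 0.00388 to 0.892 for Apoa1 and from 0.047 to 0.726 for Apom. In the fit scaled on the 33 genes Apoc3 and Apoe had log2 differences of 0.02 and 0.14 and did not pass.

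**Figure D4:**
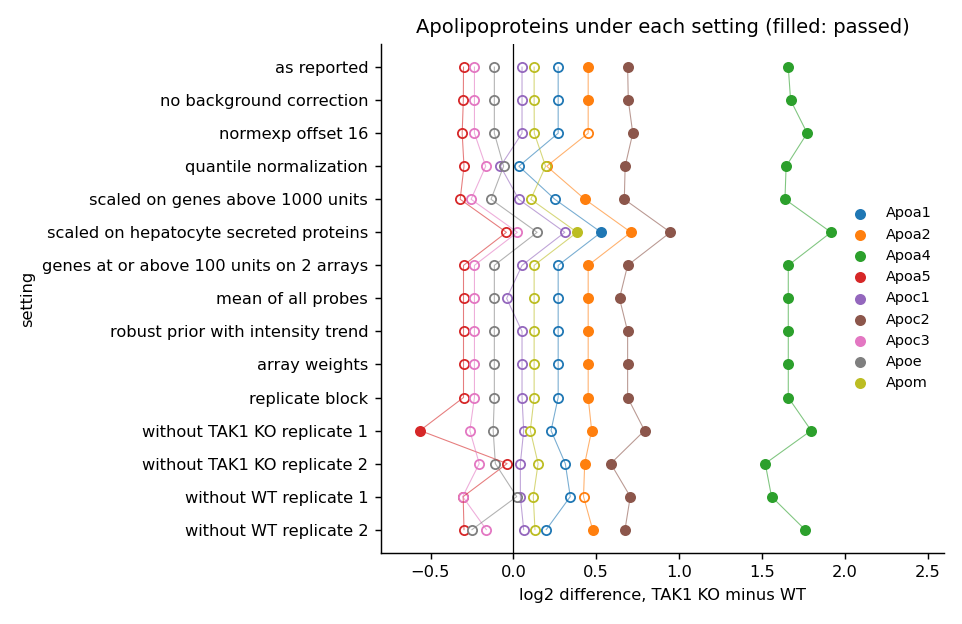
Log2 difference, TAK1 KO minus WT, of each measured apolipoprotein gene (colour) in the reported fit and 14 alternatives, with filled points where the adjusted p was under 0.05. Apoa4 and Apoc2 are filled in every row, Apoa2 in the reported fit and 11 alternatives, and Apoe, Apoc1 and Apoc3 lie on both sides of 0.

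Other genes with apolipoprotein names and genes of related plasma proteins split in direction. Of 13 measured genes 2 were higher and 4 lower in TAK1 KO (median log2 difference -0.07). Apod, Apoo and Apool, 3 of the 13, lay below 100 units on every array. Clu, or apolipoprotein J, a secreted chaperone, read 23148.7 and 24135.9 units in TAK1 KO and 9373.1 and 9917.8 units in WT. It rose 2.45-fold (limma, adjusted p = 3.50e-05), with the groups far apart. Saa4, a constitutively made serum amyloid A, read 1143.8 and 903.8 units in TAK1 KO and 2924.4 and 2652.7 units in WT and fell 2.73-fold (adjusted p = 9.02e-05). Apon read 1955.6 and 1561.4 units in TAK1 KO and 4716.4 and 4430.0 units in WT and fell 2.61-fold (adjusted p = 9.31e-05). Apol9b, whose family has near-identical copies, fell 2.24-fold (adjusted p = 0.00142) and Apoh, beta-2-glycoprotein I, 1.37-fold (adjusted p = 0.0206). The phospholipid transfer protein gene Pltp was 1.39-fold higher (adjusted p = 0.0335), a call lost in 4 of the 14 alternatives (adjusted p from 2.71e-05 to 0.217), and its second probe did not pass (adjusted p = 0.74). Apof read 20158.7 and 20061.3 units in TAK1 KO and 18415.3 and 19076.9 units in WT (adjusted p = 0.572).

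Genes that load lipid onto apolipoprotein B and move the particle through the cell were lower in 5 and higher in 4 of 24 measured genes. The lipid transfer protein Mttp, which lipidates the scaffold, read 487.1 and 544.3 units in TAK1 KO and 651.1 and 686.0 units in WT. It fell by 0.37 ± 0.10 on the log2 scale (SE, n = 2 per group; limma, adjusted p = 0.0285). The esterases Aadac and Ces1d, which release stored triglyceride for secretion, fell 2.13-fold and 1.85-fold (adjusted p = 0.000176 and 0.000298). Dgat2, an enzyme of the last step of triglyceride synthesis, had a log2 difference of -0.68 ± 0.11 (SE) and passed (adjusted p = 0.00293). The phospholipid remodelling enzyme Lpcat3 fell 1.48-fold (adjusted p = 0.0074), as did its second probe (log2 -0.86, adjusted p = 0.000338). P4hb, the disulfide isomerase that is the partner subunit of MTTP, was 1.40-fold higher and the cargo receptor Surf4 1.38-fold higher (adjusted p = 0.00578 and 0.0132). The P4hb call was lost when WT replicate 2 was left out (0.0594, the highest adjusted p over the alternatives, of which the lowest was 1.76e-05). Cidec, a lipid droplet protein, also passed upward (adjusted p = 0.0218), but lay below 100 units on both WT arrays, so no fold is given, and the call was lost without either WT array (adjusted p = 0.13 and 0.153).

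For enzymes and cofactors that remodel the particles in plasma, 5 of 16 were higher and 4 lower. Lpl, the lipase that Apoc2 activates, read 8878.2 and 10786.3 units in TAK1 KO and 5380.7 and 6251.7 units in WT, 1.69-fold higher (limma, adjusted p = 0.00256). Angptl8, an inhibitor of that lipase, read 1587.1 and 805.4 units in TAK1 KO and 289.4 and 453.1 units in WT. It was 3.10-fold higher (adjusted p = 0.00411), a call lost without WT replicate 1 (0.0697) and with a robust prior (0.167), over a range of adjusted p from 3.88e-32 to 0.167. Pon1, an esterase carried on high density lipoprotein, fell 1.80-fold, Lmf1, which matures lipases, 1.44-fold, and Lcat, the enzyme that Apoa1 activates, 1.43-fold (adjusted p = 0.000508, 0.00334 and 0.00389). The second probe of Lcat passed too (log2 -0.57, adjusted p = 0.00414). Lmf1 lost its call in 1 of the 14 alternatives (adjusted p up to 0.161).

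Receptors and uptake proteins were higher in 5 of 21 measured genes and lower in 0 at an adjusted p under 0.05 in limma, and the median log2 difference was 0.12. Amn, the membrane anchor of the cubilin receptor, read 793.0 and 1271.8 units in TAK1 KO and 106.7 and 105.5 units in WT, 9.12-fold higher (adjusted p = 1.17e-05). Lsr, a receptor for triglyceride-rich remnants, was 1.64-fold higher and Apobr at least 1.55-fold higher (adjusted p = 0.000894 and 0.00164), with WT arrays below 100 units in Apobr. The other 2 were Pltp, already counted above, and Sorl1, which lay below 100 units on every array and gets no fold. The second probes of Lsr and Apobr, both below 100 units on every array, did not pass (limma over all probes, adjusted p = 0.849 and 0.945). Lrp1, the main remnant receptor beside the LDL receptor, read 851.6 and 746.0 units in TAK1 KO and 797.3 and 818.3 units in WT (adjusted p = 0.945).

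Of 31 measured regulators of apolipoprotein genes 6 were lower and 1 higher. Hnf4a, a nuclear receptor that drives many apolipoprotein genes, read 5410.0 and 4718.8 units in TAK1 KO and 4763.1 and 5308.7 units in WT, and the groups overlapped (limma, adjusted p = 0.983). Mlxipl, the glucose sensor ChREBP, fell 2.48-fold, Srebf1 1.75-fold and the clock repressor Nr1d1 1.73-fold (adjusted p = 9.46e-05, 0.0144 and 0.00249), whereas Foxa3 rose 1.66-fold (adjusted p = 0.0012). The Srebf1 call was lost without either WT array (adjusted p = 0.121 and 0.113), over a range from 4.67e-09 to 0.121. The second probe of Srebf1, below 100 units on every array, did not pass (log2 0.09, adjusted p = 0.755), nor did that of Nr1d1 (log2 -0.42, adjusted p = 0.0611). Creb3l3, a factor of the endoplasmic reticulum known to activate Apoa4 and Apoc2, read 1018.6 and 725.3 units in TAK1 KO and 1101.4 and 821.4 units in WT, and the groups overlapped (adjusted p = 0.709).

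**Figure D5:**
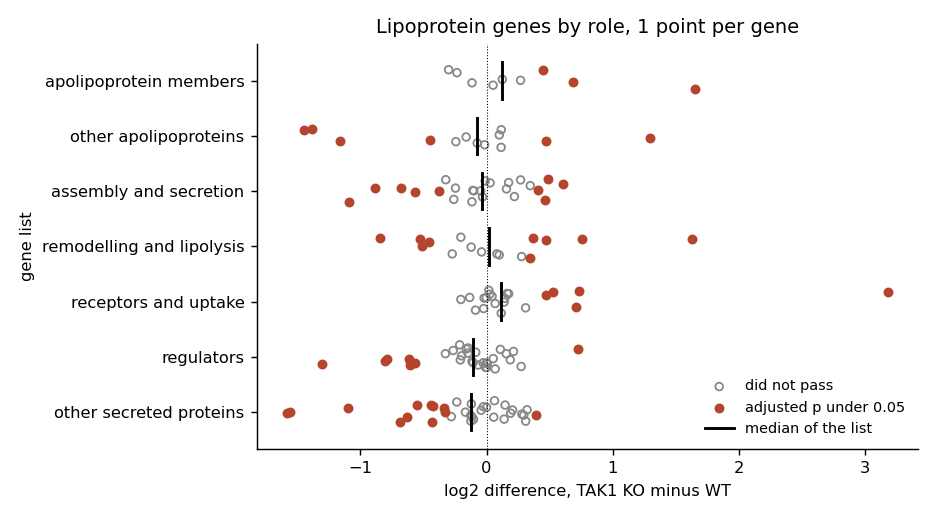
Log2 difference, TAK1 KO minus WT, of each measured gene by role, with filled points for an adjusted p under 0.05 and a bar at the list's median. Called genes lie on both sides of 0 except among receptors and uptake proteins (5 higher, 0 lower) and the 9 apolipoproteins described here (3 higher, 0 lower). The 5 include Pltp, which other lists hold too, and Sorl1, which lay below 100 units on every array.

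By a fixed measure, the distance between centred log2 values over the 4 arrays among 1707 genes above 1000 units, the genes most like Apoa4 were Jpt1 (distance 0.18), Mmp14 (0.20) and Lyz1 (0.21). Jpt1 read 4183.6 and 5629.9 units in TAK1 KO and 1614.6 and 1694.2 units in WT. Mmp14, a membrane-bound metalloproteinase, read 2933.1 and 3021.9 units in TAK1 KO and 913.9 and 942.0 units in WT. Lyz1, a lysozyme, read 9652.0 and 10037.5 units in TAK1 KO and 2768.4 and 2971.3 units in WT. All 3 were higher on both TAK1 KO arrays, as Apoa4 was, and with 4 arrays in 2 groups the measure depends largely on the size of the genotype difference.

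Markers of other cells moved in the same livers. Of 16 macrophage and monocyte markers 10 were higher and 0 lower, and their summed level was 17634.6 and 17981.4 units in TAK1 KO, against 8421.5 and 7460.0 units in WT. Of 14 stellate cell and matrix markers 11 were higher and 0 lower, with sums of 26238.2 and 21984.9 units in TAK1 KO and 10453.1 and 11201.4 units in WT. Macrophages also make Apoe. Of the other marker lists, 2 of 5 bile duct and 2 of 5 neutrophil markers were higher, 2 of 8 endothelial markers were lower, and 0 of 8 lymphocyte markers passed. Of 4 erythroid markers 1 was higher (Slc4a1) and 1 lower (Alas2), and of 4 exocrine pancreas markers 1 was lower (Cela1). The part of other cells in the apolipoprotein values was not tested. Of the 5 measured enterocyte markers 0 passed, 4 lay below 100 units on every array, and their sum was 339.3 and 336.5 units in TAK1 KO and 367.1 and 346.2 units in WT. Among 10 hepatocyte markers 1 fell, Cyp2e1, and 0 rose, and 0 lay below 100 units on every array, although the probe of Alb read only 190.5 to 214.4 units.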

How the data were processed

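Liver RNA of 4 samples was read on Illumina arrays as biotinylated cRNA, per the labels' protocols, and samples were grouped by title. The authors deposited linear intensity values that were already normalized between arrays; how they were normalized is not given in the sources used, and the values carry no detection p-values or saturation flags. Values from before normalization, whose 4 columns match no sample label, were not used. Probe names came from the platform annotation, and their symbols were brought to those of RefSeq for GRCm38.p6 (11 identifiers unmatched). Of the probes, 23978 had 1 gene, 0 had several and 1719 are unnamed here. The probe with the highest mean stood for its gene, and the other probes of the apolipoproteins and of the list genes named are given beside it.

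Background was corrected with limma's normexp (offset 50) and log2 taken, with no further normalization. TAK1 KO was set against WT with lmFit and eBayes (limma 3.58.1 in R 4.3.3; two-sided; 2 residual and 6.85 prior degrees of freedom), and p-values were adjusted by Benjamini-Hochberg across 16593 genes, with 0.05 as threshold. A gene under 100 units on both arrays of only 1 genotype gets a lower bound, computed against the lowest signal above 100 units on each of those arrays, and no fold where that bound is not above 1. The labels name no batch. The apolipoproteins and the gene lists were chosen with earlier results of these data known. Up to 4 genes that passed with the largest change are named per list, and up to 2 that went against most; the others in the text were named after their values were seen.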

Additional observations from a re-analysis of the deposited data

How the results depend on the processing

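The 14 alternatives covered background correction, normalization, scaling, dim probes, probe choice, variance prior, array weights, the replicate block and leaving out each array. Apoa4 (log2 1.52 to 1.92) and Apoc2 (0.59 to 0.95) passed upward in all 14, and Apoa2 in 11 (0.20 to 0.71 over the 14). Scaling on hepatocyte genes for secreted proteins (and Cps1) gave 4119 genes higher and 550 lower, 5 apolipoproteins higher, and 29 lipoprotein list genes higher and 10 lower (15 and 19 as reported); this scaling adds 0.26 to every log2 difference by construction, which also turns the sign of Apoc3 (0.024) and Apoe (0.143), and its fit gave every gene the same variance. Without 1 array, genes numbered 1035 to 1875 higher and 759 to 1429 lower, apolipoproteins 2 to 3 higher and 0 to 1 lower, and list genes 9 to 16 higher and 14 to 20 lower. Leaving out WT replicate 1 gave 1068 genes higher and 759 lower, and leaving out WT replicate 2 gave 1035 and 765. The fewest list genes higher (9) came without WT replicate 2, and the 1 apolipoprotein lower, Apoa5, came without TAK1 KO replicate 1. Apoc1, which did not pass, changed sign with the mean of its opposite probes (-0.041) and with quantile normalization (-0.078; the cause was not tested). Without 1 array Apoe ran from -0.25 to 0.02, positive when WT replicate 1, the brighter WT array, was left out. Fits with 1 TAK1 KO array take their spread from the WT arrays. Over all settings the counts higher and lower ranged from 1 to 2 and 3 to 4 for other apolipoproteins, 1 to 9 and 3 to 7 for assembly, 2 to 6 and 1 to 4 for remodelling, 4 to 10 and 0 to 0 for receptors, 1 to 5 and 3 to 8 for regulators, and 0 to 9 and 4 to 12 for secreted proteins. Same-numbered samples share only a number (correlation of their deviations 0.045 over all genes); with the replicate block 1758 genes were higher and 1309 lower, and 3 apolipoproteins were higher and 0 lower. Intensities alone show no saturation limit, so differences of probes above 20000 units may be understated. Dimmer probes of the listed bright genes gave lower log2 differences, both where the brightest probe rose and where it fell. Whether a rise such as that of Apoa2, read by 1 probe, is understated or overstated was not tested.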
